A study of Mus musculus with 29 samples.

Results

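The genes described here encode the machinery that copies DNA and the factors that open S phase, 36 genes in all. They were found by gene symbol, each matched to its Ensembl ID, and all 36 were present among the 38924 genes of the LSK count table and the 18194 genes of the niche count table. By role they are the 6 subunits of the MCM helicase (Mcm2 to Mcm7), its activators Cdc45 and Gins1 to Gins4, its loaders Cdc6 and Cdt1, the sliding clamp Pcna with the clamp loader Rfc1 to Rfc5, and the polymerase and primase genes Pola1, Pole and Prim1. The others are Rpa1, Rpa2, Fen1 and Lig1, which handle single-stranded DNA and the lagging strand, the nucleotide enzymes Rrm1, Rrm2 and Tyms, the chromatin and histone factors Chaf1a, Chaf1b, Uhrf1 and Slbp, and the S phase switch genes Ccne1, Ccne2 and E2f1.

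Before S phase, CDC6 and CDT1 load the MCM ring onto replication origins. CDC45 and the GINS complex then join the ring to form the moving helicase, the RFC complex places the PCNA ring on primed DNA, and polymerases extend from it. Many of the genes are targets of E2F transcription factors and are transcribed as cells pass from G1 into S phase. In the bone marrow most long-term stem cells rest, while the progenitors beside them divide, and transplantation drives stem cells into cycle.

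The study asked how niches that lack 1 copy of Wnt5a, which encodes a secreted WNT ligand, shape regenerating blood stem cells. LSK cells, defined as lacking lineage markers and carrying Sca-1 and Kit, were sorted after transplantation from mice of niche genotype WT (6 libraries) or Wnt5a, meaning haploinsufficient (5 libraries), and sequenced by Smart-seq2, which reads whole transcripts. Endothelial (EC), osteoblastic (OBC) and mesenchymal (MSC) niche cells were sorted in 3 WT and 3 Wnt5a libraries each and sequenced by UMI-seq, which counts unique molecular identifiers (UMIs). All libraries carry the strain label 129Ly5.1. The labels give the genotype of the niche and not of the transplanted cells, so the Wnt5a transcript in LSK cells is no check of them. They give no age, no dose and no time after transplantation, and do not say whether libraries come from separate animals, so p-values measure the spread between these libraries.

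Read totals of LSK libraries ran from 1254553 to 5775459 (WT) and from 1573560 to 3690114 (Wnt5a), and niche totals were 10635 to 117989 UMIs. Kit (286 to 564 CPM, library-scaled counts), Ly6a, which encodes Sca-1 (159 to 690 CPM), and Cd34 (432 to 728 CPM) were present in every LSK library, while Cd3e was at 0 in 6 and Ly6g at 0 in 8 of the 11. Wnt5a replicate 5 stood apart by plasma cell transcripts, with Jchain at 20927 CPM against at most 3646 CPM in WT, and the summed B and plasma cell markers at 45233 CPM against 1934 to 11248 CPM in WT. Satellite repeat transcripts took 0.0836 to 0.417% of reads in WT and 0.341 to 6.73% in Wnt5a, and mitochondrial transcripts 1.77 to 3.39% and 2.54 to 8.96%. The WT libraries and Wnt5a replicates 1 to 3 have 4-digit label numbers, Wnt5a replicates 4 and 5 have 3-digit ones. Label order and genotype also go together in part, since WT replicates 3 to 6 carry the highest numbers.

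In LSK cells the replication genes did not move as a block. Their summed level was 3617 to 4717 CPM in WT and 3777 to 4637 CPM in Wnt5a, 2 ranges that overlap almost entirely. Of the 34 members that passed the filter on low counts, 17 had positive and 17 had negative log2 fold changes (Wnt5a over WT), with a median of -0.01 against 0.02 over all genes tested. None of the 34 passed edgeR's quasi-likelihood test at an adjusted p under 0.05, where 0.0229% of all 13098 genes tested did. At an unadjusted p under 0.05 there were 10 members (29.4%), 6 higher and 4 lower, beside 18.4% of all genes tested (10.7% higher and 7.7% lower). DESeq2 called 1 member, Gins2, among 780 genes called in all. Limma voom called 0 members, and 0 genes in all. All 6 MCM genes were positive and all 5 RFC genes negative, and the other 23 tested members were 11 positive and 12 negative, with a median of -0.05. In bulk libraries such as these, fewer cells in S phase and less RNA per cell cannot be told apart.

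**Figure D1:**
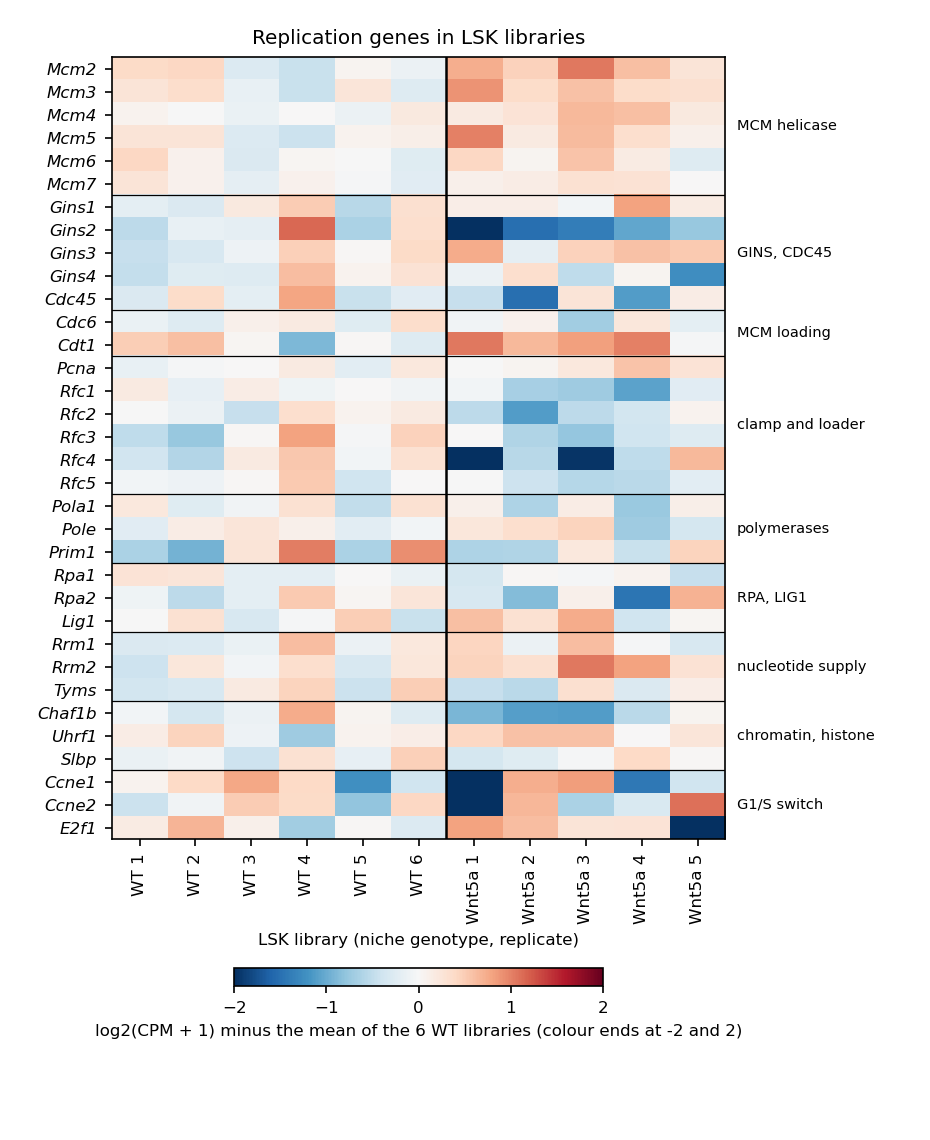
Level of each tested replication gene in the 11 LSK libraries, as log2(CPM + 1) minus the mean of the 6 WT libraries, with genes ordered by role and libraries by niche genotype and replicate. The MCM genes are mostly red in Wnt5a replicates 1 to 4, while Gins2 is blue in all 5 Wnt5a libraries and the Rfc genes are mostly blue in replicates 1 to 4.

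The MCM genes encode the ring-shaped motor that unwinds DNA ahead of the fork. All 6 had positive log2 fold changes (0.17 to 0.62, median 0.43). At an unadjusted p under 0.05 there were 4 of the 6, beside 10.7% of all genes tested that were higher, but none passed over all genes. Mcm2 was at 112, 149 and 203 CPM in the lowest, median and highest WT library and at 254, 210, 320, 231 and 182 CPM in Wnt5a replicates 1 to 5. Replicates 1 to 4 lay above every WT library and replicate 5 lay within the WT range. The means were 239 ± 52.2 (SD, n = 5) and 156 ± 37.8 CPM (SD, n = 6), and the log2 fold change was 0.62 ± 0.20 (SE; edgeR adjusted p = 0.133). Mcm3 was at 98.9, 141 and 174 CPM in the lowest, median and highest WT library and at 253, 175, 205, 176 and 169 CPM in Wnt5a replicates 1 to 5. Replicate 5 again fell inside the WT range, and replicates 2 and 4 lay just above it (log2 fold change 0.50 ± 0.19, edgeR adjusted p = 0.189). For Mcm4 the WT libraries ran from 181 to 227 CPM with a median of 200 CPM, and Wnt5a replicates 1 to 5 were at 225, 240, 313, 303 and 229 CPM. The groups met at their edges, with replicate 1 just below the highest WT library (log2 fold change 0.39 ± 0.15 SE, edgeR adjusted p = 0.199). Mcm5 averaged 209 ± 57.0 against 151 ± 28.2 CPM (log2 fold change 0.47 ± 0.20 SE, edgeR adjusted p = 0.227). Mcm6 and Mcm7 had log2 fold changes of 0.20 and 0.17 (edgeR adjusted p = 0.588 and 0.613). Leaving out Wnt5a replicate 5, the plasma cell rich library, gave Mcm2 a value of 0.70 (edgeR adjusted p = 0.0424), and no other MCM gene passed the test in any of the settings run.

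Within the WT group, Mcm2 and the MCM sum were highest in the 2 libraries with the lowest label numbers. WT replicates 1 and 2, whose label numbers lie among those of the 4-digit Wnt5a libraries, had Mcm2 at 200 and 203 CPM, and WT replicates 3 to 6 had 126, 112, 158 and 140 CPM. The summed MCM level was 1126 and 1067 CPM in WT replicates 1 and 2, 801 to 949 CPM in WT replicates 3 to 6, and 1397, 1109, 1480, 1239 and 1004 CPM in Wnt5a replicates 1 to 5. Among label numbers 8471 to 8541 alone (2 WT and 3 Wnt5a libraries, a set chosen after seeing the data), the 6 MCM genes ran from 0.00 to 0.38 with a median of 0.32, and Mcm2 had a log2 fold change of 0.36. In that set 0 of 34 members passed edgeR's test, beside 0.198% of 13100 genes, and 4 members had an unadjusted p under 0.05, beside 10.8% of genes. What the label numbers stand for is not given in the sources used here, and their part in the MCM values was not tested.

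CDT1 loads MCM rings onto origins, with CDC6 as its partner. Cdt1 was at 38.2, 73.2 and 109 CPM in the lowest, median and highest WT library and at 150, 113, 128, 145 and 70.7 CPM in Wnt5a replicates 1 to 5. The 4 libraries other than replicate 5 lay above all WT libraries, and the log2 fold change was the highest among the members (0.68, SE 0.27, edgeR adjusted p = 0.201). As with Mcm2, WT replicates 1 and 2 were the highest of their group, at 101 and 109 CPM. Cdc6 averaged 51.9 ± 11.9 CPM in Wnt5a and 56.2 ± 10.2 CPM in WT (log2 fold change -0.12, edgeR adjusted p = 0.83).

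The promoters of some of these genes carry letters that E2F factors are known to bind. RefSeq promoter windows of GRCm38.p6, 250 bases before to 50 bases after each start site, were found for 29 of the 36 genes. They were searched on both strands for TTTCCCGC, TTTCGCGC, TTTGCCGC and TTTGGCGC, of which some matches overlap each other when read on opposite strands. At least 1 match was found for 11 of the 29 genes (37.9%), beside 2.6% of 27025 genes with a window. The 11 were Mcm3, Mcm5, Mcm6, Mcm7, Cdc6, Cdt1, Rfc3, Gins3, Pola1, Uhrf1 and Lig1, so that 4 of 5 MCM genes with a window had a match and 1 of 5 genes of the clamp and its loader did. ATTGG, the letters of the NF-Y box on the opposite strand, was in 65.5% of member genes and 41.1% of all genes. The windows below are those of Mcm3 (chr1:20820263-20820562, minus strand) and Mcm5 (chr8:75109259-75109558, plus strand) as helicase genes, of Cdt1 (chr8:122567765-122568064, plus strand) as the member with the highest fold change, and of Chaf1b (chr16:93883651-93883950, plus strand) as a member with a negative value and no match. They are written 5′ to 3′ on the strand of the gene, with the matches in capitals.
Mcm3: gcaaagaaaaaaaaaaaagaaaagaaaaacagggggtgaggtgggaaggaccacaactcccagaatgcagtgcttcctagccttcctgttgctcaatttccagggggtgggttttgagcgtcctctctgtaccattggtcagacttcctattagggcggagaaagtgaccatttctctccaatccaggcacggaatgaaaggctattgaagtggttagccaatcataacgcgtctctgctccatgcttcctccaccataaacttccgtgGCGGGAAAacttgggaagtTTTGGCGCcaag
Mcm5: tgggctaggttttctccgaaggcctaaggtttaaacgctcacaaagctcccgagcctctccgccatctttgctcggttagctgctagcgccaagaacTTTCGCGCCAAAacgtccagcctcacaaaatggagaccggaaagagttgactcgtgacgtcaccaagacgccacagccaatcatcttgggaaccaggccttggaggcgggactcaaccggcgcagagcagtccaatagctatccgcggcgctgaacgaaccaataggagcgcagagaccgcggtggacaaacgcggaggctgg
Cdt1: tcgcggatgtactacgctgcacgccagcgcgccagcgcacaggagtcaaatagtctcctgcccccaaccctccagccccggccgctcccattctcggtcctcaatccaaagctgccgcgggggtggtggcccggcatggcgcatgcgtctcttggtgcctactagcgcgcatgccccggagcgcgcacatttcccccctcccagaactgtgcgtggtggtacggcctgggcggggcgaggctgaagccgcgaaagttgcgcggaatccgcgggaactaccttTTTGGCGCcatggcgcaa
Chaf1b: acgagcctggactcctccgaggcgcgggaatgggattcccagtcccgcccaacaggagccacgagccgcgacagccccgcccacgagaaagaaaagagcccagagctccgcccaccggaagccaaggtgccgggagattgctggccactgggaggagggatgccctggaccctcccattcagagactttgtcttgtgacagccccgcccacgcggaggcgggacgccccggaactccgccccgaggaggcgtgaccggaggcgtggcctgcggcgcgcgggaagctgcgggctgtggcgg
In Mcm3 the matches begin 20 and 39 bases after the start site, in Cdt1 the match begins 33 bases after it, and in Mcm5 a pair of overlapping matches begins 153 and 149 bases before it. For Mcm5 the start site is uncertain. In the GENCODE annotation the gene begins at 75109569, beyond the end of the window, and none of its transcripts holds the window's last 50 bases. Mcm2, Rrm2 and Rfc1, which were among the members with the smallest p, had a window and no match, and Gins2 and Mcm4 had no entry in the promoter table. Of the 11 genes with a match, 8 had positive and 3 had negative log2 fold changes, and of the 16 tested genes with a window and no match, 5 had positive and 11 negative ones. These counts are a description, were not tested, and say nothing of binding.

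The clamp loader was the group with the opposite sign. RFC1 is the large subunit and RFC2 to RFC5 are the small subunits of the complex that opens the PCNA ring. All 5 had negative log2 fold changes (-0.60 to -0.36, median -0.48). At an unadjusted p under 0.05 there were 2 of them, beside 7.7% of all genes tested that were lower. Rfc1 was at 112, 123 and 142 CPM in the lowest, median and highest WT library and at 121, 78.8, 76.3, 59.7 and 108 CPM in Wnt5a replicates 1 to 5. Replicates 2 to 5 lay below all WT libraries and replicate 1 within them (log2 fold change -0.50 ± 0.20 SE, edgeR adjusted p = 0.207). Rfc4 was at 96.6, 153 and 212 CPM in the lowest, median and highest WT library, against 33.8, 99.2, 36.9, 102 and 229 CPM in Wnt5a replicates 1 to 5. Replicates 1 and 3 were far below the WT range while replicate 5 was above it, and the log2 fold change over all libraries was -0.60 (SE 0.41, edgeR adjusted p = 0.452). Rfc2 (-0.47, edgeR adjusted p = 0.252), Rfc3 (-0.48, 0.341) and Rfc5 (-0.36, 0.385) did not pass either. In the set of label numbers 8471 to 8541 Rfc3 was positive (0.21) and the other Rfc genes were negative.

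Helicase and clamp loader could be set against each other within each library. The MCM sum divided by the RFC sum was 0.934 to 2.06 in WT, and 2.89, 2.76, 4.09, 2.78 and 1.45 in Wnt5a replicates 1 to 5. Replicates 1 to 4 lay above all WT libraries and replicate 5 lay in the middle of them. WT replicates 1 and 2 had the highest WT ratios, at 1.90 and 2.06. With the genes left out that overlap another gene on the opposite strand (Mcm7, Rfc2, Rfc4 and Rfc5), the ratio was 2.15 to 5.20 in WT and 4.27 to 9.14 in Wnt5a. The ratio was chosen after its genes' values were seen, its size depends on transcript lengths, and it was not tested.

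**Figure D2:**
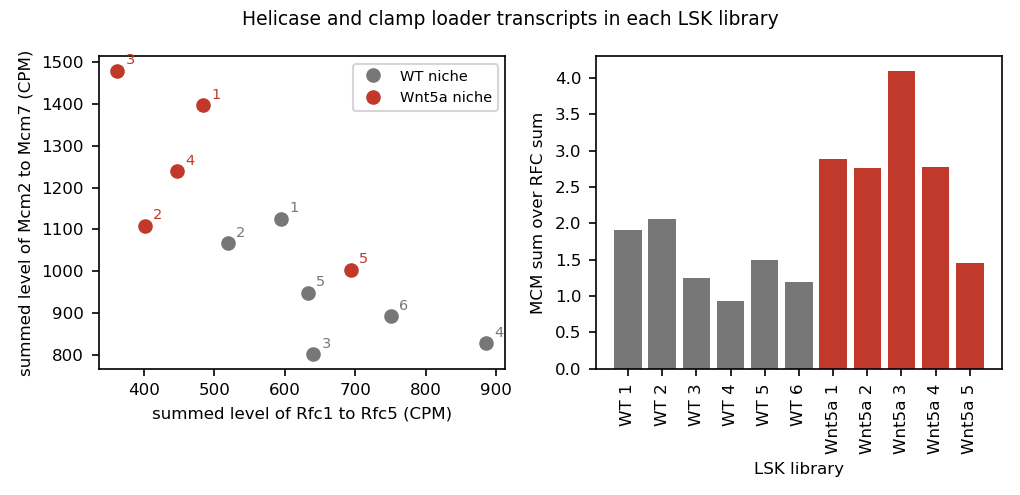
Left, summed CPM of Mcm2 to Mcm7 against summed CPM of Rfc1 to Rfc5 in each LSK library, numbered by replicate; right, the ratio of these sums, with WT in grey and Wnt5a in red. Wnt5a replicates 1 to 4 lie at an RFC sum of 362 to 484 CPM, below the WT range of 519 to 886 CPM, while replicate 5 lies at 694 CPM with a ratio of 1.45.

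PCNA, the clamp itself, did not share the sign of its loader. Pcna averaged 296 ± 48.1 CPM in Wnt5a and 253 ± 29.5 CPM in WT (log2 fold change 0.23 ± 0.16 SE, edgeR adjusted p = 0.453). Its reads could be divided with the processed pseudogene Pcna-ps2, which had 8425 reads in all LSK libraries beside 8337 for Pcna, so its level is uncertain. Summed over both, the level was 616 ± 95.3 CPM in Wnt5a (n = 5) and 506 ± 40.6 CPM in WT (n = 6).

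GINS is the 4-subunit complex that ties the MCM ring to CDC45, and its genes went apart. Gins2 had the smallest p of all members. It was at 21.1, 29.5 and 75.5 CPM in the lowest, median and highest WT library and at 6.49, 11.1, 12.1, 15.7 and 19.2 CPM in Wnt5a replicates 1 to 5. Every Wnt5a library was lower than every WT library, which held for no other tested member and for 1.55% of all genes tested. The means were 12.9 ± 4.81 (SD, n = 5) and 36.8 ± 20.4 CPM (SD, n = 6). The log2 fold change was -1.52 ± 0.40 (SE; edgeR unadjusted p = 0.0016, adjusted p = 0.0904). The call turned on the processing. Gins2 passed DESeq2 (adjusted p = 0.00965), which called 780 genes in all. It passed edgeR without a filter on low counts (adjusted p = 0.0348), where 343 genes were called. It also passed edgeR without Wnt5a replicate 5 (adjusted p = 0.0271), where 8.32% of 13387 genes were called. Gins1 and Gins3 were positive (0.22 and 0.43) and Gins4 was negative (-0.26), with edgeR adjusted p of 0.673, 0.48 and 0.679. Cdc45 averaged 41.5 ± 20.7 CPM in Wnt5a and 57.0 ± 21.2 CPM in WT (log2 fold change -0.46, edgeR adjusted p = 0.492).

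The value of Gins2 is uncertain for another reason. The gene lies on the minus strand of chromosome 8 (GRCm38, 120578633 to 120589304), and 70.7% of its longest coding transcript overlaps exons of Gse1 on the opposite strand. Whether strand was used in counting is not given in the sources used here, so reads of the pair may not be told apart. Gse1 itself was at 6.37 ± 4.83 CPM in Wnt5a and 8.16 ± 4.50 CPM in WT (log2 fold change -0.40, edgeR adjusted p = 0.771). The same holds for smaller stretches of Rfc4 (14.5%, with Eif4a2), Rfc2 (19.1%, with Lat2), Rfc5 (17.8%, with Wsb2), Ccne2 (20.3%, with Ints8) and Mcm7 (13%, with Ap4m1 and Cops6). It also holds for Slbp (19.9%, with Gm10459), Cdc45 (7.89%, with Ufd1), Lig1 (6.84%, with Zswim9) and Pole (1.09%, with Gm15792). Eif4a2, which overlaps Rfc4, had a log2 fold change of -0.68 (edgeR adjusted p = 0.234). Mcm2 to Mcm6, Rfc1, Rfc3, Rrm2, Cdt1 and Chaf1b overlap no other exon in this annotation.

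Fen1 and Chaf1a did not pass the filter. Fen1, the flap nuclease of the lagging strand, was at 0 to 2.28 CPM in WT and 0.283 to 6.15 CPM in Wnt5a, where 3 reads correspond to 0.476 to 2.38 CPM depending on the library. Of its transcript, 83.9% overlaps Tmem258 and Gm10143 on the opposite strand, and Tmem258 averaged 676 ± 506 CPM in Wnt5a and 237 ± 65.3 CPM in WT (log2 fold change 1.51, edgeR adjusted p = 0.0818). Chaf1a, the large subunit of the histone chaperone CAF-1, was at 0 to 7.70 CPM in WT and 0 to 3.73 CPM in Wnt5a, and 48.6% of its transcript overlaps Ubxn6. For both genes the table holds too few reads for a comparison, and the part of the overlap in these low values was not tested.

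Chaf1b, the middle subunit of CAF-1, which places histones on new DNA, was at 75.9, 91.6 and 164 CPM in the lowest, median and highest WT library. In Wnt5a replicates 1 to 5 it was at 51.2, 44.8, 44.2, 66.5 and 101 CPM. Replicates 1 to 4 lay below all WT libraries, and replicate 5 was level with the second highest of them (log2 fold change -0.72 ± 0.27 SE, edgeR adjusted p = 0.189). Uhrf1, which brings the maintenance methyltransferase DNMT1 to new DNA, averaged 144 ± 23.4 against 114 ± 27.4 CPM (log2 fold change 0.35, edgeR adjusted p = 0.373). Slbp, which binds the stem-loop of histone mRNAs, was at 167 ± 34.7 against 172 ± 39.9 CPM (log2 fold change -0.05, edgeR adjusted p = 0.921).

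Of the nucleotide enzymes, RRM2 is the subunit of ribonucleotide reductase whose supply follows S phase. Rrm2 was at 90.3, 129 and 152 CPM in the lowest, median and highest WT library and at 164, 150, 251, 211 and 147 CPM in Wnt5a replicates 1 to 5. Replicates 1, 3 and 4 lay above all WT libraries, and replicates 2 and 5 were within them (log2 fold change 0.58 ± 0.20 SE, edgeR adjusted p = 0.151). Rrm1, its large partner, averaged 270 ± 74.4 and 248 ± 66.7 CPM (0.12, edgeR adjusted p = 0.794), and Tyms, which makes thymidylate, at 164 ± 44.1 against 186 ± 54.8 CPM (-0.18, edgeR adjusted p = 0.708).

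**Figure D3:**
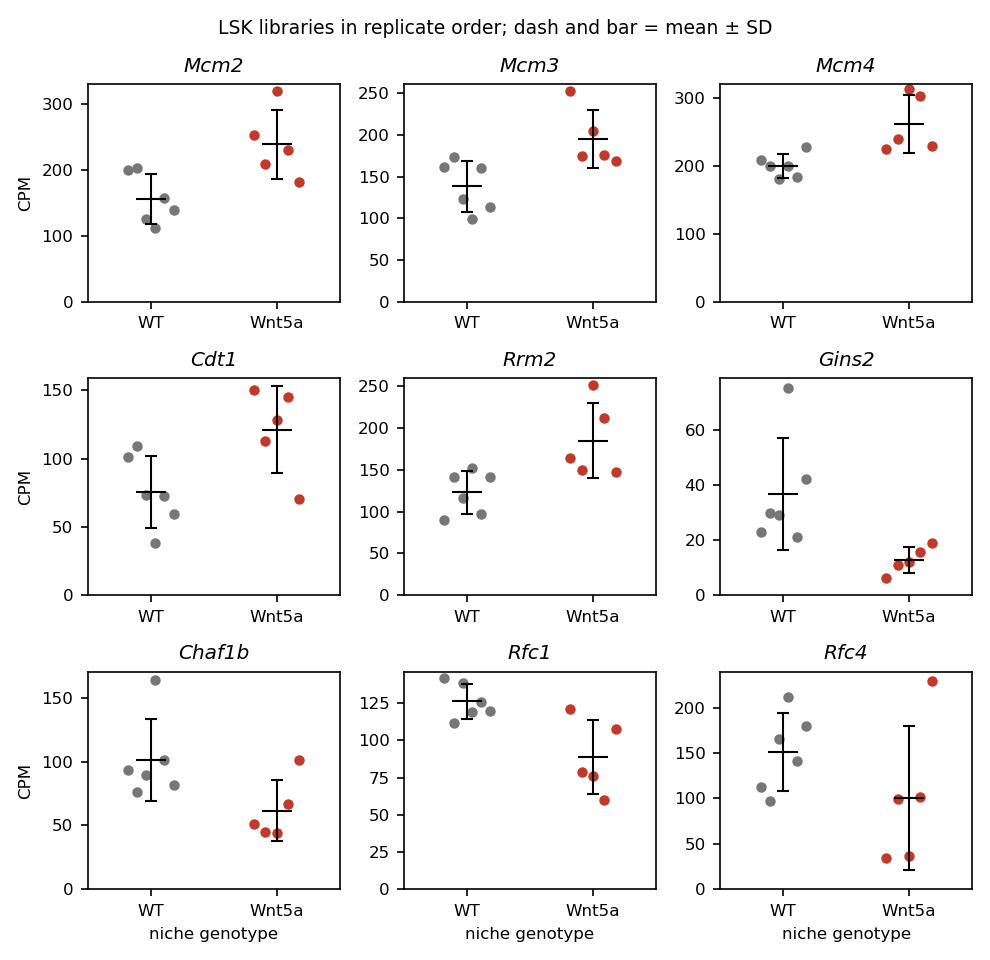
CPM of 9 replication genes in each LSK library, with 6 WT points in grey and 5 Wnt5a points in red in replicate order; the dash and bar are the mean ± SD, and each vertical axis starts at 0. In Gins2 the Wnt5a points (6.49 to 19.2 CPM) lie under all WT points, and in the other 8 genes at least 1 Wnt5a point lies within the WT range.

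The remaining members had log2 fold changes near 0 or a wide spread. Pola1 and Prim1, the catalytic subunits of polymerase alpha and primase, had -0.17 and -0.35, and Pole, the leading-strand polymerase, had 0.04 (edgeR adjusted p = 0.704, 0.623 and 0.946). Rpa1 and Rpa2, which coat single-stranded DNA, had -0.15 and -0.22, and the ligase Lig1 had 0.28 (edgeR adjusted p = 0.689, 0.753 and 0.57). The switch genes had wide ranges over libraries. Ccne1, cyclin E1, ran from 2.39 to 29.0 CPM in Wnt5a and from 6.19 to 27.9 CPM in WT, and Ccne2, cyclin E2, from 20.5 to 210 and from 56.1 to 139 CPM. E2f1, which switches on many of the other members, was at 5.24 CPM in Wnt5a replicate 5 and at 29.7 to 44.0 CPM in replicates 1 to 4, where WT held 14.8 to 40.2 CPM. Their log2 fold changes were -0.21, 0.04 and 0.20 (edgeR adjusted p = 0.876, 0.975 and 0.84).

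**Figure D4:**
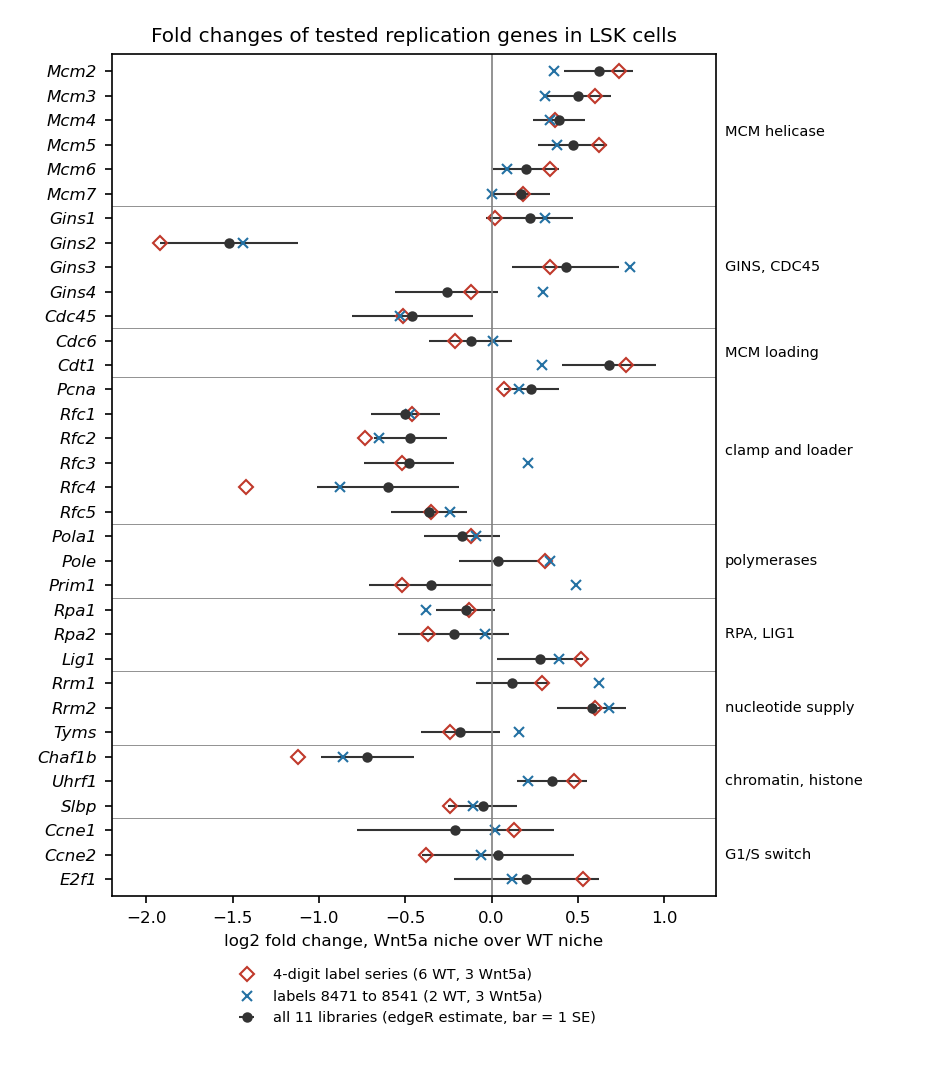
Log2 fold change (Wnt5a niche over WT niche) of the 34 tested replication genes by role, with black points for all 11 libraries (bars, 1 SE), red diamonds for the 4-digit label series and blue crosses for label numbers 8471 to 8541. The MCM genes sit at or right of 0 in all 3 sets, Gins2 and Chaf1b left of 0 in all 3, and Rfc3, Prim1, Gins4 and Tyms are among those that change side in the smallest set.

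When libraries were limited to the 4-digit label series (6 WT and 3 Wnt5a), 3 members passed edgeR's test, and all 3 fell, beside 6.34% of 13910 genes called in both directions and 3.29% lower. They were Gins2 (log2 fold change -1.92 ± 0.47 SE, edgeR adjusted p = 0.0303), Chaf1b (-1.12, SE 0.27, edgeR adjusted p = 0.0289) and Rfc4 (-1.42, SE 0.35, edgeR adjusted p = 0.0322). Mcm2 had 0.74 (SE 0.21, edgeR adjusted p = 0.0538), and the MCM median was 0.48 with 0 of 6 past the test. Without Wnt5a replicate 5 alone, Mcm2 rose and Gins2, Chaf1b and Rfc4 fell (0.70, -1.72, -0.97 and -1.16, edgeR adjusted p = 0.0424, 0.0271, 0.031 and 0.0438), where 8.32% of 13387 genes were called. These sets share their libraries with the comparison of all 11 and are no separate evidence. Replicate 5 held the most plasma cell reads and had the lowest satellite (0.341%) and mitochondrial (2.54%) shares of the Wnt5a libraries. Replicate 4, also outside the 4-digit series, had the highest mitochondrial share (8.96%). With all 11 libraries, a fit without mitochondrial, satellite, immunoglobulin, haemoglobin and olfactory receptor genes called 0 members. There Mcm2, Gins2, Chaf1b and Rfc4 had 0.61, -1.53, -0.72 and -0.60. The part of other plasma cell RNA or of library quality in the calls was not tested.

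By length, the most abundant member was Pcna, at 167 ± 19.4 CPM per kilobase of its longest coding transcript in WT, followed by Rfc4 (118 ± 33.8), Rfc3 (99.7 ± 40.1), Prim1 (95.4 ± 55.6) and Slbp (90.5 ± 20.9). The last 4 do not differ beyond their spread, and Pcna may include reads of its pseudogene. The MCM genes lay between 35.6 ± 4.62 (Mcm7) and 66.2 ± 12.2 CPM per kilobase (Mcm6). Lowest among tested members were Gins3 (8.18 ± 2.25), Ccne1 (8.73 ± 3.84), Gins2 (9.43 ± 5.22) and E2f1 (9.44 ± 3.13), which overlap in their spread. In Wnt5a, Gins2 was at 3.31 ± 1.23 CPM per kilobase (SD, n = 5), and the means of those other 3 genes there were 7.54 to 11.1. These values depend on the transcript whose length was used. For Gins2 it has 3900 bases, of which 70.7% overlap Gse1, so its place among the lowest members is uncertain.

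Other replication genes were also split in sign. Of 53 listed beyond the members, 51 were tested, 29 were positive (median 0.06), and 0 passed edgeR's test, with 11 (21.6%) at an unadjusted p under 0.05, close to the 18.4% of all genes tested. Those with the smallest p were Rnaseh2a, a ribonuclease H2 subunit (log2 fold change -1.65 ± 0.36 SE, edgeR adjusted p = 0.0564), the methyltransferase Dnmt1 (0.99, SE 0.23, edgeR adjusted p = 0.0608) and Chtf8, part of an alternative clamp loader (-1.30, SE 0.34, edgeR adjusted p = 0.0904). In the 4-digit series, where 6.34% of all genes were called, 4 of the 51 were. Dnmt1 rose (1.15, edgeR adjusted p = 0.0122), and Rnaseh2a (-1.88, 0.0215), Chtf8 (-1.69, 0.0227) and the origin recognition subunit Orc5 (-1.17, 0.0195) fell.

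Regulators of entry into S phase also went both ways. Of 25 tested, 14 were positive and 0 passed edgeR's test, with 7 (28%) at an unadjusted p under 0.05, beside 18.4% of all genes tested. Myc, a growth regulator, averaged 393 ± 166 and 180 ± 22.1 CPM (1.13, edgeR adjusted p = 0.0564), cyclin D3 (Ccnd3) at 43.2 ± 10.7 against 89.5 ± 17.2 CPM (-1.05, 0.0593), and Rbl2, the p130 partner of repressive E2Fs, at 38.3 ± 25.2 against 94.5 ± 13.1 CPM (-1.29, 0.0904). In the 4-digit series 4 of the 25 passed, beside 6.34% of all genes. Myc (1.22, edgeR adjusted p = 0.0146) and E2f8 (0.94, 0.0381) rose, and Ccnd3 (-1.30, 0.0152) and Rbl2 (-1.56, 0.0152) fell. Of 7 CDK inhibitors, 5 were tested and 0 passed edgeR's test, with 2 at an unadjusted p under 0.05, beside 18.4% of all genes tested. Cdkn2c had 0.92 (edgeR adjusted p = 0.0571) and Cdkn2d had -1.11 (0.0992), both inhibitors of CDK4 and CDK6, and Cdkn2c rose in the 4-digit series (1.01, edgeR adjusted p = 0.0189). Cdkn1c, the p57 inhibitor linked to stem cell rest, had 0.56 (SE 0.49, edgeR adjusted p = 0.57).

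Genes of mitosis were more often positive than negative. Of 30 listed, 29 were tested, 18 were positive (62.1%, median 0.17), beside 51.7% of all genes tested (median 0.02), and 0 passed edgeR's test, with 8 higher and 1 lower (31% together) at an unadjusted p under 0.05, beside 18.4% of all genes. The difference from other genes was not tested. The smallest p belonged to Ect2, an activator of cytokinesis (0.92, SE 0.28, edgeR adjusted p = 0.119), Top2a, which untangles chromosomes (0.43, SE 0.15, edgeR adjusted p = 0.167), and Hmmr (0.69, SE 0.26, edgeR adjusted p = 0.182). In the 4-digit series 3 of 30 tested passed, beside 6.34% of all genes. Ect2 (0.75, edgeR adjusted p = 0.0465), Top2a (0.56, 0.0471) and the kinesin Kif23 (0.77, 0.0403) rose.

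In the niche, replication transcripts were near the limit of counting. All 36 members had at least 1 UMI over the 18 libraries, 1401 UMIs in all, from 5 for Gins2 to 118 for Cdt1, and 14 had under 20. Per 10000 UMIs of a library, the members summed to 8.89, 19.1 and 10.3 in EC WT and 17.8, 13 and 13.8 in EC Wnt5a. They summed to 14.9, 19.8 and 28.2 in OBC WT and to 17.3, 32.4 and 27.7 in OBC Wnt5a. The groups overlapped in both populations. EC WT replicate 14, the highest of its group, also stood apart by haemoglobin, at 24.3% of its UMIs.

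MSC was the population where the groups did not overlap. The members summed to 14.3, 16.1 and 13.2 UMIs per 10000 in WT replicates 1 to 3 and to 17.5, 31.1 and 30.3 in Wnt5a replicates 4 to 6. Wnt5a replicate 4 was close to the WT libraries and the other two were well above them. Of the 36 members, 28 had a higher share in Wnt5a MSC, beside 20 in EC and 20 in OBC. Most of these genes were too low to be tested, and the same counts were not made over all genes. Of the 1099 genes tested, 48.4% had a positive log2 fold change in MSC, 45.9% in EC and 50.2% in OBC. How often the groups fail to overlap over all genes was not counted either. Mcm5 had 5 UMIs in the 3 WT MSC libraries and 26 in the Wnt5a ones, Lig1 had 3 and 19, Pcna 8 and 25, and Mcm3 went the other way with 11 and 5. The group totals were 133346 and 114827 UMIs, and a count of 0, as Gins2 had in WT MSC, allows up to 2.25 UMIs per 100000. Mitosis genes summed to 6.15 to 9.91 per 10000 in WT MSC and 12.5 to 15.9 in Wnt5a MSC. The 15 granulocyte and monocyte markers summed to 11.5 to 14.9 in WT MSC and 26.0 to 38.3 in Wnt5a MSC, with 5 of the 15 at 0 in all WT and 3 at 0 in all Wnt5a libraries. These markers were also higher without overlap in EC (4.32 to 5.59 in WT, 15.2 to 29.8 in Wnt5a) and in OBC (31.4 to 59.2 and 64.1 to 102), where the replication sums overlapped. Endothelial markers were lower in Wnt5a MSC, at 47.8 to 73.5 against 101 to 107, where EC WT libraries held 72.5 to 131. Mesenchymal markers were at 53.3 to 61.9 in WT MSC and at 59.2 to 80.1 in OBC WT. In Wnt5a MSC replicates 4 to 6 they were at 96.5, 46.4 and 35. Replicates 5 and 6, with the higher replication sums, were thus below the WT MSC libraries in these markers. The part of other cell types and of cell composition in the MSC values was not tested.

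**Figure D5:**
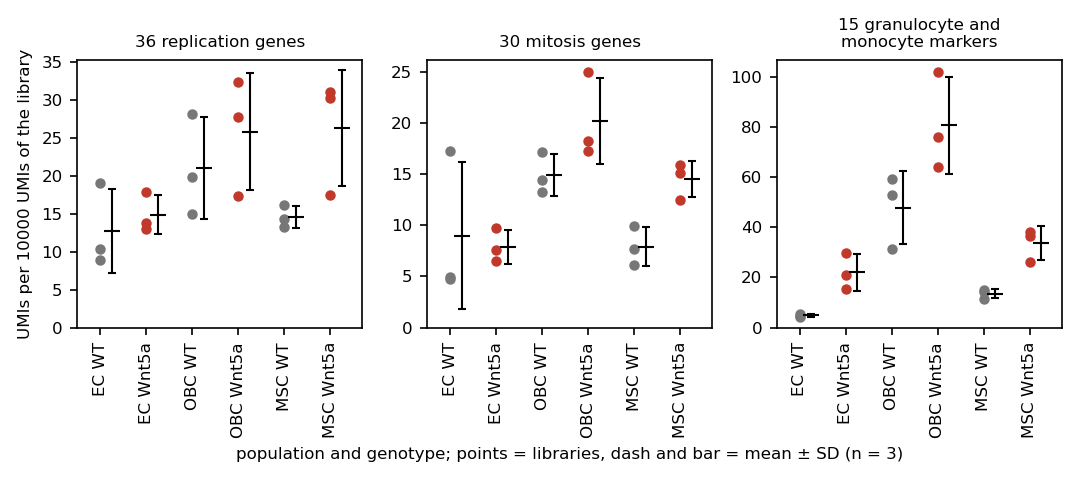
UMIs per 10000 UMIs of each niche library for the 36 replication genes, 30 mitosis genes and 15 granulocyte and monocyte markers, by population and genotype (WT grey, Wnt5a red, 3 libraries each; dash and bar, mean ± SD). In MSC the Wnt5a libraries lie above the WT libraries in all 3 panels, with replication genes at 17.5 to 31.1 against 13.2 to 16.1.

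Only Rrm1 and Rrm2 passed the filter on low counts in the niche. The filter acts on values scaled by library depth, and Cdt1 (118 UMIs in all) and Pcna (103) did not pass, while Rrm1 (111) and Rrm2 (85) did. For library depth, Rrm1 was highest in OBC WT replicate 8, OBC Wnt5a replicate 11 and MSC Wnt5a replicates 5 and 6. These libraries let Rrm1 pass the filter, and its MSC value and the population differences below rest on them too. Those values are thus no independent support. In MSC, Rrm1 had 4, 6 and 2 UMIs in WT replicates 1 to 3 and 1, 13 and 22 in Wnt5a replicates 4 to 6 (log2 fold change 1.77 ± 0.71 SE, edgeR adjusted p = 0.179). Rrm2 had 3, 2 and 2 UMIs against 6, 8 and 7 (1.92, SE 0.84, edgeR adjusted p = 0.215). Neither passed edgeR's test in MSC, where 0.455% of 1099 genes were called, and both had an unadjusted p under 0.05, as had 18.5% of genes. In EC (0.07 and 0.21, edgeR adjusted p = 0.988 and 0.963) and OBC (0.59 and 0.02, edgeR adjusted p = 0.89 and 0.996) neither passed, with 0.364% and 1% of genes called and 0 of the pair at an unadjusted p under 0.05 (8.1% and 8.74% of genes). The genotype difference did not differ between populations by the interaction test (edgeR adjusted p = 0.741 for Rrm1 and 0.729 for Rrm2).

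Between populations, Rrm1 was lower in EC than in the mean of the others (log2 difference -2.04, SE 0.47, edgeR adjusted p = 0.000685, where 39.8% of genes were called) and higher in OBC (1.81, SE 0.47, edgeR adjusted p = 0.00153, where 46% were called). In OBC, however, 13 of the 16 WT UMIs were in replicate 8 and 15 of the 19 Wnt5a UMIs were in replicate 11. Without both of these libraries, a setting chosen after seeing the data, the differences were 0.20 in OBC (edgeR adjusted p = 0.856) and -1.23 in EC (edgeR adjusted p = 0.0837), and neither passed. Without either library alone the OBC difference did not pass (1.09 and 0.96, edgeR adjusted p = 0.203 and 0.212), and the EC difference did (-1.66 and -1.62, 0.0111 and 0.0094). Rrm2 did not differ past the test in EC (-0.21, edgeR adjusted p = 0.757) or OBC (0.41, edgeR adjusted p = 0.583).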

How the data were processed

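The authors deposited read counts per Ensembl gene for LSK cells and UMI counts per gene for niche cells. STAR, featureCounts and mm10 (GRCm38) are named in the submitters' processing notes. Tool versions, annotation release, strand setting and UMI collapse were not given in the sources used here. No column was left out (0 of both tables). The 28 spike-in entries of the niche table, at most 0.0115% of a library, were excluded.

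Each table was fitted whole with edgeR 4.0.16 in R 4.3.3 (TMM, filterByExpr at 10 counts and 15 in total, two-sided quasi-likelihood test with robust dispersion). Benjamini-Hochberg adjustment ran over all genes tested. The LSK fit held 11 libraries, the niche fit 18 libraries in 6 groups. SE was taken as the absolute log2 fold change over the root of edgeR's F. CPM use TMM-scaled totals. Smart-seq2 reads are not independent molecules, so floors (3 counts) and limits cover counting error only. DESeq2 1.42.0 and voom of limma 3.58.1 were alternatives, as were RLE scaling, no filter, each library left out, and label sets. Code was tested on simulated data. Coordinates and overlaps come from GENCODE annotation of GRCm38.

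Members and gene lists were chosen with earlier results of these data known. All members are named, with values in every library for those past the test in all libraries or the 4-digit label series and for the 8 with the smallest p. Of other lists, members past the test and up to 3 with the smallest p are named. Pairs of libraries in a group shared at most 1.18% of identical counts, so none was treated as a duplicate.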

Additional observations from a re-analysis of the deposited data

Results flagged for a closer look

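A gap test was run on 72 groups of values, the tested members, their summed level and the MCM to RFC ratio in WT and in Wnt5a, and 2 values stood apart, where chance gives about 1 in 20 groups. Gins1 was at 108 CPM in LSK Wnt5a replicate 4, and the nearest other Wnt5a library was at 69.4 CPM. Chaf1b was at 164 CPM in LSK WT replicate 4, and the nearest other WT library was at 101 CPM. In the same WT library Gins2 (75.5 CPM), Rfc3 (214 CPM), Rfc4 (212 CPM) and Prim1 (258 CPM) were also the highest of their group, while Mcm2 (112 CPM), Mcm3 (98.9 CPM) and Cdt1 (38.2 CPM) were the lowest. Without this library the log2 fold change of Chaf1b was -0.53 (edgeR adjusted p = 0.35). That is the weakest value in the range of -0.97 to -0.53 seen when any 1 library was left out. Gins2 was also weakest without this library (-1.18, edgeR adjusted p = 0.194), in a range of -1.72 to -1.18.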

How the results depend on the processing

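The MCM median stayed positive (0.35 to 0.49) and the RFC median negative (-0.58 to -0.40) when any 1 library was left out, and in the other settings run. The count of members past the test in LSK (0) was 1 with no filter and 1 with DESeq2 (Gins2 in both), 3 in the 4-digit label series, and 0 to 4 with 1 library left out (4 without Wnt5a replicate 5). The count of all genes past the test (3) was 343 with no filter, 780 with DESeq2, 0 with limma voom, 882 in the 4-digit series, 26 among labels 8471 to 8541, 1 without mitochondrial, satellite, immunoglobulin, haemoglobin and olfactory receptor genes, and 0 to 1114 with 1 library left out. The median of the members (-0.01) was 0.14 among labels 8471 to 8541.

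Of the single-gene values, 39 changed sign over 14 gene and comparison pairs, 26 of them with 1 library left out, and none was past the test on either side. Among labels 8471 to 8541 these were Gins4 (0.30), Cdc6 (0.01), Tyms (0.16), Rfc3 (0.21), Prim1 (0.49), Ccne1 (0.02) and Ccne2 (-0.06). In the 4-digit series they were Ccne1 (0.13) and Ccne2 (-0.38). Ccne2 was also negative with no filter (-0.01) and with voom (-0.34). With 1 library left out, Rrm1 ran from -0.03 to 0.27, Pole from -0.08 to 0.17, Slbp from -0.18 to 0.05, Ccne1 from -0.58 to 0.07 and Ccne2 from -0.37 to 0.30. The cause of these changes was not tested.

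In the genotype comparisons of the niche no setting called Rrm1 or Rrm2. The count of all genes called in EC (4) was 2 with EC libraries alone and 2 to 24 with 1 library left out. In OBC (11) it was 3 to 17 with 1 library left out. In MSC (5) it was 9 with RLE scaling, 0 with no filter, 77 with MSC libraries alone and 0 to 38 with 1 library left out. With no filter EC Rrm1 was -0.02 and OBC Rrm2 was -0.04. With 1 library left out EC Rrm1 ran from -0.30 to 0.54, EC Rrm2 from -0.36 to 1.32, OBC Rrm1 from -1.01 to 2.09 and OBC Rrm2 from -0.48 to 0.53. No paired analysis was possible because the replicate numbers of LSK libraries only name them and the niche numbers are all different, so that the genotype comparisons have no pairs. Niche numbers differ by 6 between populations (1, 7 and 13, for example), and the labels do not say that such libraries share a source. The deviations of libraries in such a set correlated at -0.0629 to 0.172 (median 0.0677), over 0.1 in 7 of 18 pairs. Outside the sets, pairs of the same genotype correlated at -0.297 to 0.158 (median -0.0355), over 0.1 in 2 of 36 pairs. By this measure libraries in a set were somewhat more alike, and the reason was not tested. The deviations were taken from group means and cancel within a group. Pairs in and outside the sets are therefore not independent of each other. With these sets as a block, chosen after seeing the data, Rrm1 differed by -2.04 in EC and 1.81 in OBC (edgeR adjusted p = 0.00043 and 0.00123), as without the block, and Rrm2 again did not pass (0.701 and 0.656). Depth limits the niche, where 14 of 36 members had under 20 UMIs over 18 libraries.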
